A study of Mus musculus with 6 samples.

Results

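The genes that encode the interferon receptors and the JAK-STAT proteins behind them were compared between 2 kinds of mouse melanoma cell. They are the subunits of the type I receptor (*Ifnar1* and *Ifnar2*) and of the type II receptor (*Ifngr1* and *Ifngr2*), the kinases *Jak1*, *Jak2* and *Tyk2*, and the transcription factor subunits *Stat2* and *Irf9*. These 9 genes were chosen by name, for their place in the pathway, out of 20788 genes listed in at least 1 library. All 9 were listed in all 6 libraries and all 9 were among the 14336 genes tested, those that averaged 0.1 FPKM or more. FPKM is the number of sequenced fragments of a gene, scaled by the length of its transcript and by the depth of the library. Coordinates printed here are those of the annotation, and the deposited ones differed for 6 of the 9 genes. The deposited locus of *Ifnar2* ran on to the end of *Il10rb* (91425834), that of *Irf9* began at the start of *Rnf31* (55591708), that of *Jak1* also spanned *Raver2*, and that of *Tyk2* also spanned *Raver1*, while those of *Ifngr2* and *Stat2* differed at 1 end. Whether fragments of these neighbours entered the values was not tested.

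The cells were subclones of B16, a pigmented melanoma line from the C57BL/6 mouse strain, which the study had grouped by their use of tyrosine for melanin. Tyr-L cells are labelled as low and Tyr-H cells as high in tyrosinase activity, with 3 libraries of each, and both were grown in low-glucose DMEM with serum and antibiotics. The labels name no interferon and no other agent for either group. Whether each library had its own culture, and whether a group held more than 1 subclone, is not given, so the p-values measure the spread between these libraries, which may be technical. Each library listed between 16813 and 17413 genes, and its depth, estimated from the steps between low FPKM values, was roughly 18300000 to 20800000 fragments. Libraries of the same group differed by a median of 0.0953 to 0.114 on the log2 scale per gene, and libraries of different groups by 0.315 to 0.371. All 8 melanocyte lineage markers checked were listed, with a summed level of 7554 to 7877 FPKM in Tyr-L libraries and 5634 to 6186 FPKM in Tyr-H libraries. Of these markers 6 fell (75%, beside 39.9% of all genes tested), *Mitf* the most (-1.85 on the log2 scale), *Slc45a2* did not pass, and *Tyr*, the tyrosinase gene, rose from 10.00 ± 0.602 to 21.3 ± 2.14 FPKM (1.08). Of 14 immune cell markers, 9 were listed in no library, *Ptprc* among them, and the summed level of all 14 was 0.355 to 0.601 FPKM in Tyr-L libraries, against 0.446 to 0.714 FPKM in Tyr-H libraries. The part of the melanocyte genes' different level in the results given here was not tested.

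Interferons alert cells to infection. Type I interferons bind a receptor made of IFNAR1 and IFNAR2, which carry the kinases TYK2 and JAK1. The kinases phosphorylate STAT proteins, STAT2 among them, which join IRF9 in the complex ISGF3, and ISGF3 switches on genes through an element called ISRE. Interferon gamma binds IFNGR1 and IFNGR2, which carry JAK1 and JAK2, and its signal runs mainly through an element called GAS. Melanoma cells can respond to both kinds of interferon, and losses in this pathway are known from tumors that escape immune attack.

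*Irf9* rose 1.87-fold in Tyr-H cells, from 6.65 ± 0.941 to 12.5 ± 1.26 FPKM (SD, n = 3 each), and *Ifnar1* fell by 26.7%, from 20.4 ± 1.25 to 14.9 ± 1.08 FPKM. Of the 9 genes, 3 rose at an adjusted p of at most 0.05 (*Irf9*, *Ifngr2* and *Jak1*), 3 fell (*Ifnar1*, *Jak2* and *Tyk2*), and *Ifnar2*, *Ifngr1* and *Stat2* did not pass (limma on log2(FPKM + 0.1), Benjamini-Hochberg adjustment over all genes tested). Among all genes tested, 57.8% passed the same test, 17.9% upward and 39.9% downward, so a share of 6 in 9 is close to the background. None of the 9 reached a 2-fold change, which 8.75% of all genes did (2.96% upward and 5.78% downward). The median log2 fold change of the 9 genes was 0.11, and that of all genes tested was -0.15. This common shift depended on how the libraries were scaled, and changes are therefore also given relative to it. Relative to it they were 0.14 for *Ifnar2*, 0.26 for *Ifngr1*, 0.29 for *Ifngr2*, 0.28 for *Jak1* and 0.47 for *Stat2*. Those of *Ifnar1*, *Jak2*, *Tyk2* and *Irf9* are given with each gene. Several of the smaller calls turned on the scaling or on 1 library, as given with each gene. In RNA from whole cultures, fewer cells that express a gene cannot be told apart from less of its RNA per cell.

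**Figure D1:**
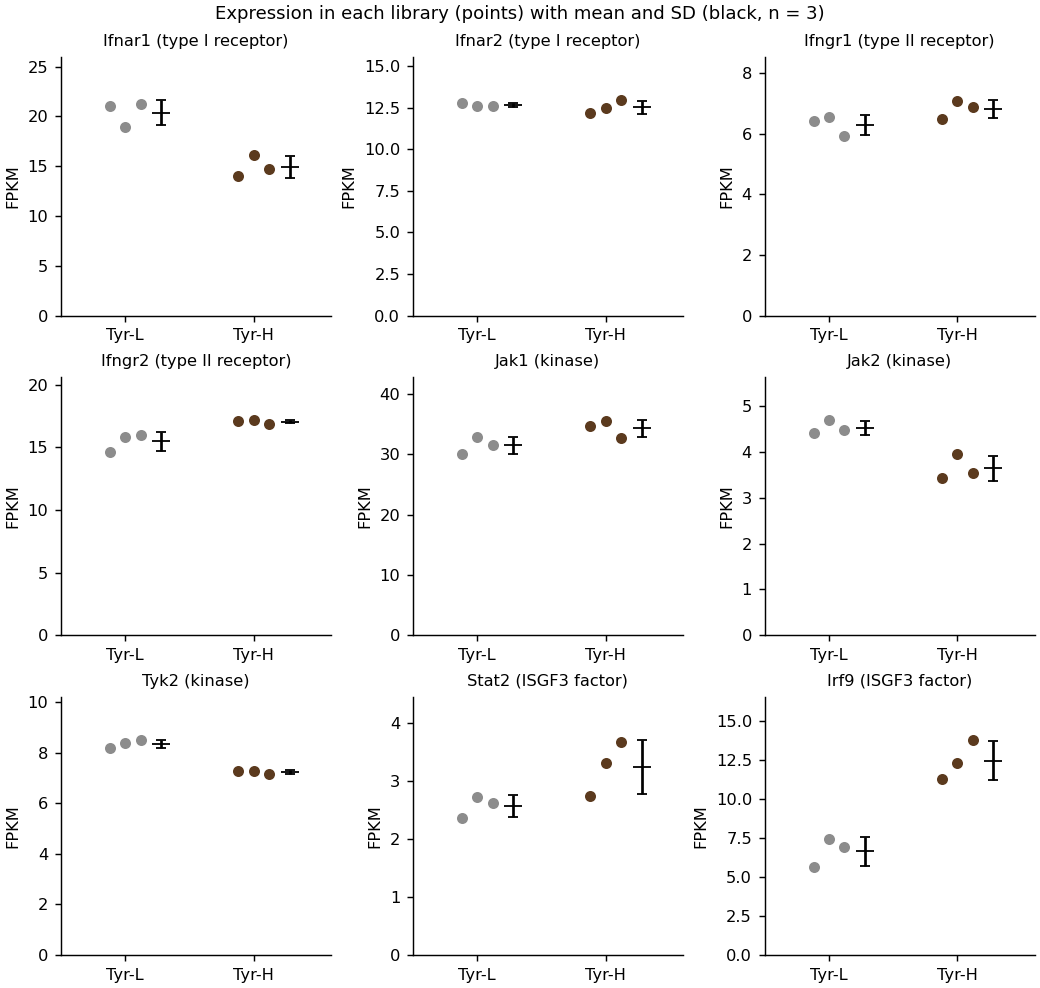
Level in FPKM (vertical axis, linear, from 0) of each of the 9 genes in every library, with 3 Tyr-L (grey) and 3 Tyr-H (brown) points per gene and the mean and SD of each group in black beside them. The Tyr-H points of *Irf9* lie between 11.3 and 13.8 FPKM and its Tyr-L points between 5.61 and 7.44 FPKM, while the points of *Ifnar2* lie together between 12.2 and 13.0 FPKM.

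The promoter windows of *Stat2*, *Ifnar1* and *Ifnar2* are shown because they were the only ones of the 9 genes that held a match to either interferon response motif. Windows ran from 250 bases before to 50 bases after each annotated start (RefSeq, GRCm38.p6), and both strands were searched for the ISRE core, which is GAAA, any 2 bases and GAAA again, and for the GAS motif TTCNNNGAA. The letters printed run from 5' to 3' on the strand of the gene and stop at the start site or at the end of a motif that crosses it. Capitals mark the match.
Stat2 promoter, chr10:128270248-128270497, + strand: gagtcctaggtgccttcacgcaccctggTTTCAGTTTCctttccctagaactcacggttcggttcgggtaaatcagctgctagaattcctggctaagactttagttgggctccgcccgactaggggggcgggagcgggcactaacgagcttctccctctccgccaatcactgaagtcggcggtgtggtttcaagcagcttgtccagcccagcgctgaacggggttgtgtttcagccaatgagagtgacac
Ifnar1 promoter, chr16:91484965-91485218, + strand: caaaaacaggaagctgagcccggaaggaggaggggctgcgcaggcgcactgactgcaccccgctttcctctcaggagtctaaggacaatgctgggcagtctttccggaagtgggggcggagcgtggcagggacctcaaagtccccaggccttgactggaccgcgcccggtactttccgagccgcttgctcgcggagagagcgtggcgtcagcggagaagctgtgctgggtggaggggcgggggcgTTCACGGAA
Ifnar2 promoter, chr16:91372533-91372782, + strand: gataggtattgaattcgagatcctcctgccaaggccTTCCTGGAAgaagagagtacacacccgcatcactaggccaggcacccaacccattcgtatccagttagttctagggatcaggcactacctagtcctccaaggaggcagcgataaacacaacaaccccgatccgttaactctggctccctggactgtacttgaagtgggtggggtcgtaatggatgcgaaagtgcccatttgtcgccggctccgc

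The ISRE core was found in the window of *Stat2*, as TTTCAGTTTC on the strand of the gene, at bases -222 to -213 from the start. This was 1 of the 9 genes (11.1%), beside 3.99% of 27025 genes with a window and 11 of 20 ISGF3 targets with a window (55.0%). The GAS motif was found in the windows of *Ifnar1* (TTCACGGAA, bases -5 to 4) and *Ifnar2* (TTCCTGGAA, bases -214 to -206), which made 2 of the 9 genes (22.2%), beside 9.55% of all genes with a window and 5 of the 20 targets (25%). Neither motif was found in either window of *Irf9*. The motifs do not contain each other. A match is a run of letters and not a measured binding site, and a window without one says only that the letters are not there.

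*Ifnar1* (ENSMUSG00000022967, chromosome 16, 91485238 to 91507441, + strand, GRCm38) encodes the chain of the type I receptor that carries TYK2. Its level was 21, 19.0 and 21.2 FPKM in Tyr-L libraries 1, 2 and 3, and 14.0, 16.1 and 14.7 FPKM in Tyr-H libraries 1, 2 and 3. Every Tyr-H library lay below every Tyr-L library. The log2 fold change was -0.45 (SE 0.07, 95% interval -0.59 to -0.30, limma adjusted p = 0.000327), or -0.29 relative to the median of all genes. Of all genes tested, 25.9% had a lower one. *Ifnar1* passed under every alternative setting tried and with each library left out, with log2 fold changes from -0.54 to -0.29. The levels rest on about 1020 to 1570 fragments per library.

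*Ifnar2* (ENSMUSG00000022971, chromosome 16, 91372783 to 91405589, + strand) encodes the other chain, which carries JAK1. Its level was 12.8, 12.6 and 12.6 FPKM in Tyr-L libraries, against 12.2, 12.5 and 13.0 FPKM in Tyr-H libraries. The groups overlapped, and the log2 fold change was -0.02 (SE 0.05, 95% interval -0.13 to 0.09, limma adjusted p = 0.793). Its sign turned with the scaling, to 0.14 under median ratio scaling and 0.13 under quantile normalization, where it passed the test. *Ifnar2* shares 315 exon bases with *Gm21970* on the same strand, a gene listed at 0 to 0.219 FPKM, and its value is uncertain to that extent.

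The type I receptor chains thus differed in how they compared between the groups. Their ratio within a library does not change when that library is scaled by a common factor, though quantile normalization can change it. *Ifnar1* was 1.64, 1.5 and 1.68 times the level of *Ifnar2* in Tyr-L libraries, and 1.15, 1.29 and 1.13 times in Tyr-H libraries. The mean ratio was 1.61 ± 0.0967 in Tyr-L and 1.19 ± 0.0884 in Tyr-H libraries (SD, n = 3 each). The log2 difference was -0.43, with no overlap between the groups. The exact two-sided permutation test of 3 against 3 libraries gave p = 0.1, the smallest it can give, and 0.125 after adjustment over 5 ratios, so a ratio cannot pass 0.05 by this test.

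*Ifngr1* (ENSMUSG00000020009, chromosome 10, 19591949 to 19610229, + strand) encodes the chain of the type II receptor that binds interferon gamma and carries JAK1. It was listed at 6.41, 6.56 and 5.92 FPKM in Tyr-L libraries, against 6.48, 7.07 and 6.87 FPKM in Tyr-H libraries. The groups overlapped, since Tyr-H library 1 lay below Tyr-L library 2. The log2 fold change was 0.11 (SE 0.07, 95% interval -0.05 to 0.27, limma adjusted p = 0.207). It passed, with values of 0.26 and 0.29, under median ratio scaling and quantile normalization.

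*Ifngr2* (ENSMUSG00000022965, chromosome 16, 91547072 to 91565623, + strand) encodes the signalling chain that carries JAK2. It was listed at 14.6, 15.9 and 16 FPKM in Tyr-L libraries, against 17.1, 17.2 and 16.9 FPKM in Tyr-H libraries, with every Tyr-H library above every Tyr-L library. It rose by 0.14 on the log2 scale, or 10.1% (SE 0.05, 95% interval 0.03 to 0.25, limma adjusted p = 0.0347). The call was lost when Tyr-L library 1 or any of the Tyr-H libraries was left out (log2 fold changes of 0.10, 0.14, 0.14 and 0.15, with adjusted p from 0.0584 to 0.113), and when each library was rescaled to the same total (0.05). The ratio of *Ifngr1* to *Ifngr2* was 0.408 ± 0.0339 in Tyr-L and 0.399 ± 0.0181 in Tyr-H cells (SD, n = 3 each), with overlapping groups (exact permutation p = 0.8).

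**Figure D2:**
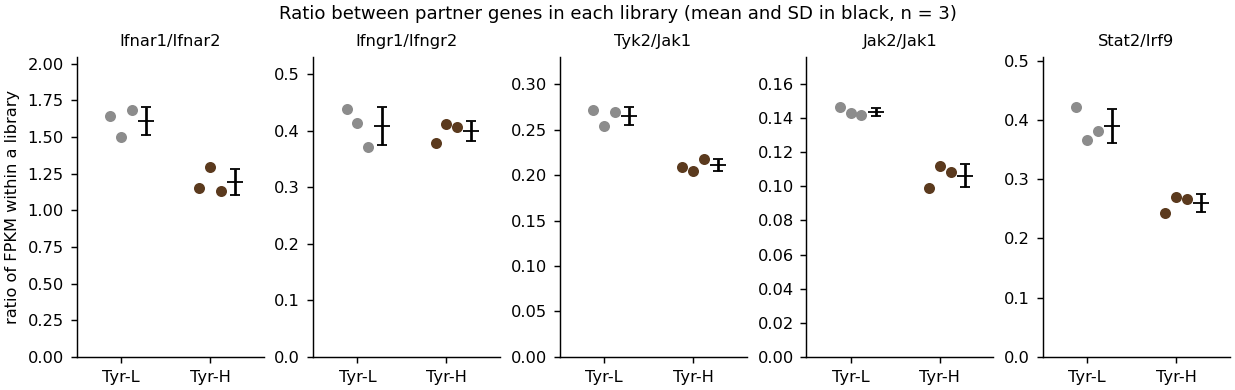
Ratio of the FPKM of 5 pairs of partner genes within each library (vertical axis, linear, from 0, no unit), with 3 Tyr-L (grey) and 3 Tyr-H (brown) points and the mean and SD of each group in black. The groups lie apart for every pair except *Ifngr1*/*Ifngr2*, and the mean of *Stat2*/*Irf9* is 0.390 in Tyr-L and 0.260 in Tyr-H cells.

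On the deposited scale 1 kinase was called higher and 2 were called lower. *Jak1* (ENSMUSG00000028530, chromosome 4, 101152367 to 101265282, - strand) encodes the kinase that both receptors use, and its level was the highest of the 9 genes in both groups. It was 30.1, 33.0 and 31.5 FPKM in Tyr-L libraries, against 34.8, 35.5 and 32.8 FPKM in Tyr-H libraries, and Tyr-H library 3 lay below Tyr-L library 2. It rose by 0.12 on the log2 scale, or 8.90% (SE 0.05, 95% interval 0.02 to 0.23, limma adjusted p = 0.0487). It was lost without Tyr-L library 1 (0.09, adjusted p = 0.160) or 3 (0.12, adjusted p = 0.105), without Tyr-H library 1 (0.11, adjusted p = 0.115) or 2 (0.10, adjusted p = 0.151), and under 6 of the other settings.

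*Jak2* (ENSMUSG00000024789, chromosome 19, 29251828 to 29313080, + strand) encodes the kinase bound to IFNGR2. It was listed at 4.41, 4.70 and 4.47 FPKM in Tyr-L libraries, against 3.44, 3.96 and 3.55 FPKM in Tyr-H libraries. The groups did not overlap, and *Jak2* fell by 19.4%, a log2 fold change of -0.31 (SE 0.09, 95% interval -0.50 to -0.11, limma adjusted p = 0.0131). Relative to the median of all genes the difference was -0.15, and it did not pass under median ratio scaling (-0.16) or quantile normalization (-0.14).

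*Tyk2* (ENSMUSG00000032175, chromosome 9, 21104068 to 21131243, - strand) encodes the kinase bound to IFNAR1. It was listed at 8.19, 8.37 and 8.51 FPKM in Tyr-L libraries, against 7.28, 7.27 and 7.15 FPKM in Tyr-H libraries, 2 narrow groups that did not overlap. It fell by 13.4% (log2 fold change -0.21, SE 0.06, 95% interval -0.33 to -0.08, limma adjusted p = 0.0115). Relative to the median of all genes this was -0.05, and it did not pass under median ratio scaling (-0.05) or quantile normalization (-0.04). *Tyk2* shares 554 exon bases with an antisense gene on the opposite strand, 1700084C06Rik, listed at 0 to 0.139 FPKM. Whether the counting used strand is not given in the sources used here.

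Set against *Jak1* in the same library, both other kinases were lower in Tyr-H cells. The ratio of *Tyk2* to *Jak1* was 0.265 ± 0.00965 in Tyr-L and 0.211 ± 0.00666 in Tyr-H libraries, a log2 difference of -0.33. That of *Jak2* to *Jak1* was 0.144 ± 0.00242 in Tyr-L and 0.106 ± 0.00657 in Tyr-H libraries (SD, n = 3 for each mean), with a log2 difference of -0.43. Both ratios separated the groups without overlap (exact permutation p = 0.1 each, the smallest possible, and 0.125 adjusted over 5 ratios).

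*Stat2* (ENSMUSG00000040033, chromosome 10, 128270559 to 128292849, + strand) encodes the STAT that is used almost only by type I and type III interferons, and its level was the lowest of the 9 genes in both groups. It was 2.37, 2.73 and 2.63 FPKM in Tyr-L libraries, against 2.75, 3.32 and 3.68 FPKM in Tyr-H libraries, so the groups did not overlap, though the lowest Tyr-H and the highest Tyr-L library were close. The log2 fold change was 0.32 (SE 0.12, 95% interval 0.04 to 0.60), and its limma adjusted p of 0.0520 missed the threshold. It passed without Tyr-H library 1 (0.43, adjusted p = 0.0143), with the filter set to 1 FPKM (adjusted p = 0.0433), and under median ratio scaling (0.47) and quantile normalization (0.50). The levels rest on about 200 to 300 fragments per library, the fewest of the 9 genes.

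*Irf9* (ENSMUSG00000002325, chromosome 14, 55603571 to 55610030, + strand) encodes the DNA-binding subunit of ISGF3. Its level was 5.61, 7.44 and 6.90 FPKM in Tyr-L libraries 1, 2 and 3, and 11.3, 12.3 and 13.8 FPKM in Tyr-H libraries 1, 2 and 3. The lowest Tyr-H library lay well above the highest Tyr-L library. The log2 fold change was 0.90 (SE 0.11, 95% interval 0.65 to 1.15, limma adjusted p = 9.91e-05), or 1.06 relative to the median of all genes, and 96.2% of the genes tested had a lower one. It passed under every alternative setting tried and with each library left out, with log2 fold changes from 0.79 to 1.07 and adjusted p from 3.81e-05 to 0.00302. *Irf9* shares 123 exon bases with *Rnf31*, its neighbour on the same strand, which rose as well, from 4.09 ± 0.262 to 5.55 ± 0.232 FPKM (log2 fold change 0.43, SE 0.08, limma adjusted p = 0.00138). How the shared bases were counted was not tested.

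The levels of *Stat2* and *Irf9* also differed relative to each other. *Stat2* was 0.422, 0.367 and 0.381 of the level of *Irf9* in Tyr-L libraries and 0.243, 0.271 and 0.266 in Tyr-H libraries. The mean ratio went from 0.390 ± 0.0286 to 0.260 ± 0.0148 (SD, n = 3 each), a log2 difference of -0.58 without overlap (exact permutation p = 0.1, adjusted 0.125), the widest of the 5 ratios.

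**Figure D3:**
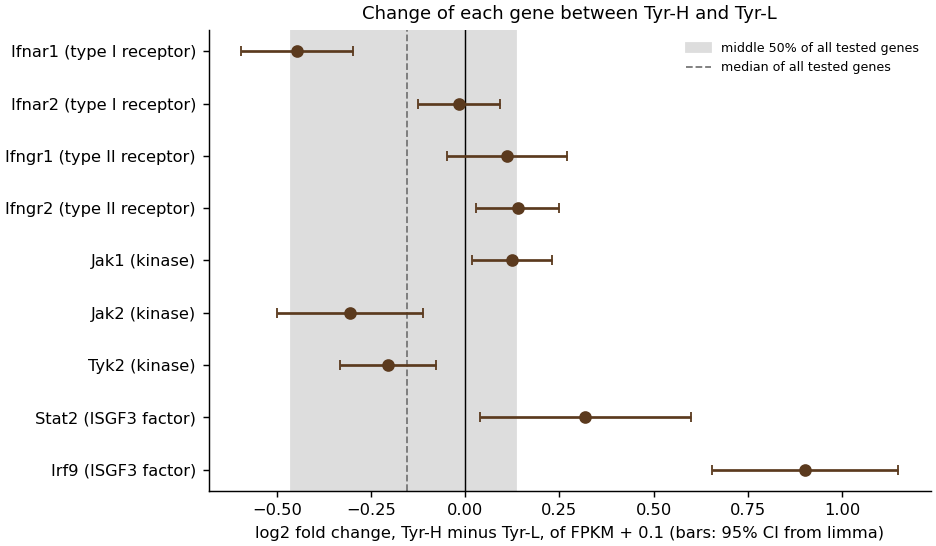
Log2 fold change of each of the 9 genes, Tyr-H over Tyr-L (horizontal axis, on log2(FPKM + 0.1)), with its 95% interval from limma, a dashed line at the median of all genes tested, -0.15, and a grey band from their lower to their upper quartile, -0.46 to 0.14. *Irf9* at 0.90 and *Stat2* at 0.32 lie above the band, *Ifngr2* at 0.14 lies just above its upper edge, and *Ifnar1* at -0.45 lies just inside its lower edge.

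Counting libraries rather than the fit, 6 of the 9 genes had groups that did not overlap, 3 with higher Tyr-H levels (*Ifngr2*, *Stat2* and *Irf9*) and 3 with lower ones (*Ifnar1*, *Jak2* and *Tyk2*). Among all genes tested this was so for 64%, 20.2% with higher and 43.8% with lower Tyr-H levels. For each of the 6 genes the exact permutation test on FPKM gave p = 0.1, the smallest that 3 against 3 libraries allow. It gave 0.2 for *Ifngr1* and *Jak1* and 0.6 for *Ifnar2*.

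The order of the levels per length differed between the groups. From high to low it was *Jak1*, *Ifnar1*, *Ifngr2*, *Ifnar2*, *Tyk2*, *Irf9*, *Ifngr1*, *Jak2* and *Stat2* in Tyr-L cells, where *Irf9* and *Ifngr1* were the neighbours whose libraries overlapped. In Tyr-H cells it was *Jak1*, *Ifngr2*, *Ifnar1*, *Ifnar2*, *Irf9*, *Tyk2*, *Ifngr1*, *Jak2* and *Stat2*, where the libraries of *Ifnar2* and *Irf9* and those of *Jak2* and *Stat2* overlapped. *Ifngr2* stood above *Ifnar1* in every Tyr-H library and below it in every Tyr-L library. *Irf9* stood above *Tyk2* in every Tyr-H library and below it in every Tyr-L library. The spread between libraries of a group was widest, relative to the mean, for *Stat2* in Tyr-H (14.5%) and *Irf9* in Tyr-L cells (14.1%).

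**Figure D4:**
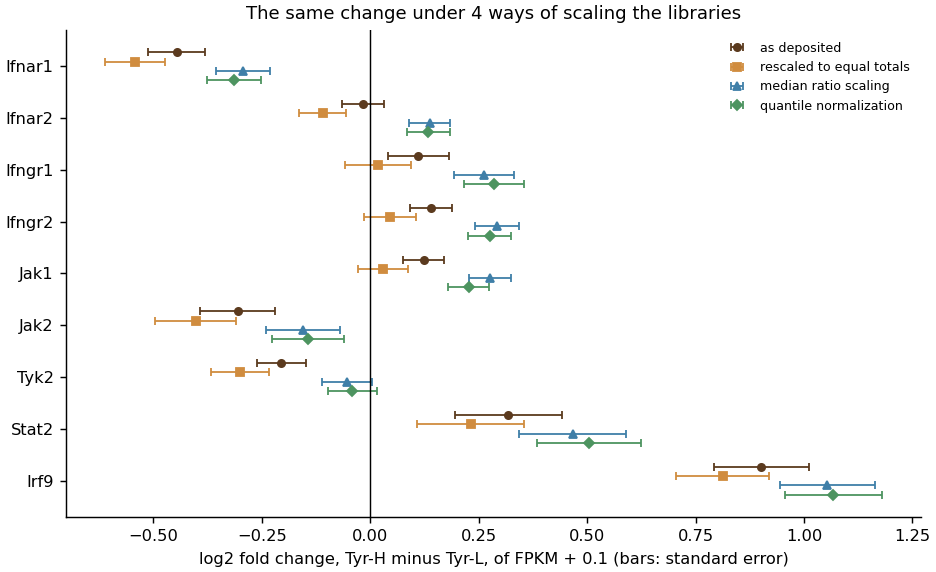
Log2 fold change of each of the 9 genes (Tyr-H over Tyr-L) on the deposited FPKM scale, with each library rescaled to the same total, under median ratio scaling and under quantile normalization, with standard errors as bars. *Irf9* is positive and *Ifnar1*, *Jak2* and *Tyk2* are negative under all 4. Only *Ifnar2* changes side, left of 0 under the first 2 and right of it under the others.

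Scaling moved the calls of the smaller changes, and it turned the sign of *Ifnar2* alone among the 9 genes. The median log2 fold change of all genes tested was -0.15 on the deposited scale, -0.25 with each library rescaled to the same total and -0.01 under both median ratio scaling and quantile normalization. Of the genes that passed, 31.0%, 21.3%, 50.7% and 48.3% were higher in Tyr-H cells under these 4, in that order. Of the 9 genes, 6 were higher and 1 lower under median ratio scaling and under quantile normalization, and *Irf9* then also passed the 2-fold threshold. With libraries rescaled to the same total, 1 was higher, *Irf9*, and 3 were lower. *Ifnar1*, at -0.29 under median ratio scaling, was the only one of the 9 genes that passed as lower under all 4. *Jak2* and *Tyk2* were negative under all 4 but did not pass under median ratio scaling or quantile normalization.

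*Ifnar2*, *Ifnar1* and *Ifngr2* lie in one cluster on chromosome 16 with *Il10rb*, which encodes the shared chain of the type III interferon and interleukin-10 family receptors. *Il10rb* starts 574 bases after *Ifnar2*, and *Ifnar1* and *Ifngr2* follow on the same strand. *Il10rb* fell from 31.4 ± 1.85 to 20.7 ± 1.11 FPKM (log2 fold change -0.60, SE 0.06, limma adjusted p = 2.09e-05), so of these receptor genes *Il10rb* and *Ifnar1* fell, *Ifngr2* rose on the deposited scale and *Ifnar2* did not pass. On the outer side of *Ifnar2*, the nearest tested coding gene, *Paxbp1*, fell by 1.33 on the log2 scale (adjusted p = 1.41e-06). Over all 9 genes there were 15 such neighbours outside the group, of which 6 rose, 5 fell and 4 did not pass, where 57.8% of all genes passed, 17.9% upward and 39.9% downward. *Cdc37*, 1978 bases from *Tyk2* and known as a helper of HSP90 for kinases, was listed at 83.2 ± 2.87 FPKM in Tyr-L libraries, against 82.6 ± 1.00 FPKM in Tyr-H cells (adjusted p = 0.813). It passed as lower with libraries rescaled to the same total (-0.10, adjusted p = 0.0331) and as higher under median ratio scaling (0.14, adjusted p = 0.00699).

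The ligands were near or below detection. Of 21 interferon genes looked for, 18 were listed in no library, *Ifng* among them, and none had a mean of 0.1 FPKM. *Ifnb1*, the gene of interferon beta, was listed in Tyr-H library 1 alone, at 0.0607 FPKM, which is under the 0.192 to 0.219 FPKM that 3 fragments would give. *Ifnz*, a type I interferon gene named after its values were seen, was listed in 5 libraries and reached 0.130 FPKM in Tyr-H library 1, the only library above its level of 3 fragments (0.0987 to 0.112 FPKM). These limits cover counting error only and do not speak of secreted protein. *Ifnlr1*, the type III receptor chain, was listed in all 6 libraries at 0.0214 to 0.154 FPKM and did not pass the filter.

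*Stat5a*, a STAT of growth hormone and prolactin signalling, fell from 8.95 ± 0.408 to 6.82 ± 0.424 FPKM (log2 fold change -0.39, limma adjusted p = 0.00105). Of 8 genes tested in the list of other interferon regulatory factors, 4 rose (50%, beside 17.9% of all genes), 2 fell (25%, beside 39.9%) and 2 did not pass. Without *Irf5*, 3 of 7 rose. The median log2 fold change of the list was 0.32, and -0.03 without *Irf5*, which passed the filter through Tyr-H cells alone. *Irf7*, which amplifies type I interferon production, rose from 1.33 ± 0.00931 to 4.48 ± 1.10 FPKM (log2 fold change 1.65, adjusted p = 2.34e-05), and *Irf1*, an early target of interferon gamma, from 6.25 ± 0.0612 to 9.98 ± 1.37 FPKM (0.66, adjusted p = 0.000263). *Irf5* was at 0.0996 ± 0.0448 FPKM in Tyr-L cells, near the level of 3 fragments, and at 1.28 ± 0.389 FPKM in Tyr-H cells, and its log2 fold change of 2.77 ran from 1.04 to 3.59 with the pseudocount. *Irf2bp1*, a partner of IRF2 and not itself an interferon regulatory factor (-0.32, adjusted p = 0.00232) and *Irf3*, a sensor-activated factor that starts interferon production (-0.18, adjusted p = 0.0206), fell, but neither passed under median ratio scaling. *Irf3* also missed the threshold without Tyr-L library 2 (-0.17) or 3 (-0.17) and without Tyr-H library 1 (-0.17) or 2 (-0.13), which leaves *Irf2bp1* as the 1 lower gene of the list.

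Of 18 inhibitors of the pathway, 4 rose (22.2%, beside 17.9% of all genes), 7 fell (38.9%, beside 39.9%) and 7 did not pass, with a median log2 fold change of -0.09 beside -0.15 for all genes tested. The balance turned with the scaling, to 6 higher and 4 lower under both median ratio scaling and quantile normalization, and was 1 higher and 8 lower with libraries rescaled to the same total. *Usp18*, which binds IFNAR2 and keeps JAK1 from it, rose most of them, from 1.95 ± 0.427 to 8.65 ± 1.52 FPKM (log2 fold change 2.10, limma adjusted p = 1.00e-05). *Socs5* rose by 0.26 (adjusted p = 0.0207). The count of risers was 1 without Tyr-L library 1 or without Tyr-H library 2, where *Socs5* did not pass (0.20 and 0.23). *Pias3* (-0.62, adjusted p = 8.36e-05) and *Pias4* (-0.43, adjusted p = 0.000499), members of a family that holds STATs back, fell. *Socs1*, the inhibitor of JAK kinases induced by interferons, was listed at 0.371, 0.580 and 0.929 FPKM in Tyr-L libraries, against 0.796, 1.00 and 0.898 FPKM in Tyr-H libraries and did not pass (0.53, adjusted p = 0.128). Its log2 fold change ranged from 0.25 to 0.82 with each library left out, and it passed without Tyr-L library 3 (0.82, adjusted p = 0.0209). *Socs3*, which acts on receptors of the interleukin-6 family, was at 2.52 ± 0.251 and 2.41 ± 0.0587 FPKM (adjusted p = 0.655).

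**Figure D5:**
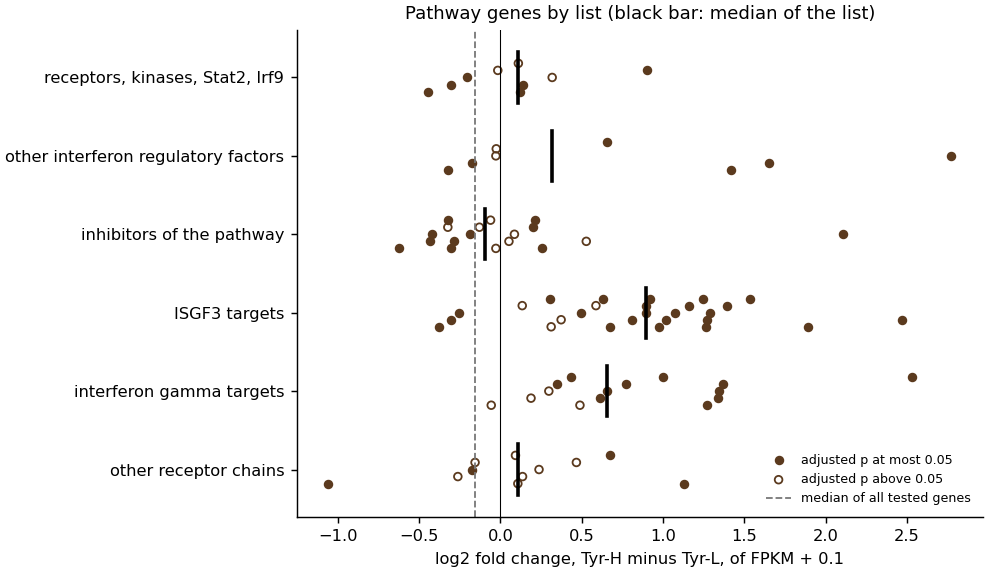
Log2 fold change (horizontal axis, on log2(FPKM + 0.1), Tyr-H over Tyr-L) of each tested gene of the 9 receptor and JAK-STAT genes and of 5 lists, filled where the adjusted p is at most 0.05, with a black bar at each list's median and a dashed line at the median of all genes tested, -0.15. The medians of the ISGF3 targets (0.90) and the interferon gamma targets (0.66) lie to the right of the other lists, and that of the 9 genes is 0.11.

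Downstream, the counts ran mostly upward. Of 27 tested ISGF3 targets, 20 rose (74.1%, beside 17.9% of all genes), 3 fell (11.1%, beside 39.9%) and 4 did not pass, and the median log2 fold change was 0.90. *Ifi44* rose from 0.374 ± 0.0717 to 2.57 ± 0.739 FPKM (2.47, limma adjusted p = 1.74e-05) and *Rtp4* from 3.54 ± 0.0843 to 13.4 ± 0.823 FPKM (1.89, adjusted p = 1.71e-07). Within the list *Ifit2* fell (-0.38, adjusted p = 0.00031), as did *Eif2ak2*, the kinase PKR that stops translation on sensing double-stranded RNA (-0.30, adjusted p = 0.0123), which missed the threshold without Tyr-L library 3 (-0.24) and under median ratio scaling (-0.15). Of 15 tested interferon gamma targets, 11 rose (73.3%, beside 17.9% of all genes), none fell (beside 39.9%) and 4 did not pass, with a median of 0.66. *Icam1* and *Psmb9*, the latter named after its values were seen, passed the filter through Tyr-H cells alone, and of the 13 others 9 rose. With a mean of at least 1 FPKM, 7 of 9 rose, beside 2321 of all 11026 genes tested at that filter. *Irgm2* rose from 1.78 ± 0.300 to 4.75 ± 0.611 FPKM (1.37, adjusted p = 4.06e-05). *Icam1* was at or under the level of 3 fragments in every Tyr-L library and at 0.604 ± 0.247 FPKM in the Tyr-H libraries. This was at least 9.87-fold higher than the mean of that level over the Tyr-L libraries. *Irf1* is counted among both the interferon gamma targets and the other interferon regulatory factors. The lists share regulators and were chosen with earlier results of these data known, so their counts are a description.

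Of 11 tested receptor chains of other cytokines that use JAK1, JAK2 or TYK2, 2 rose (18.2%, beside 17.9% of all genes), 2 fell (18.2%, beside 39.9%) and 7 did not pass, with a median log2 fold change of 0.11. *Il12rb1* rose from 0.131 ± 0.0379 to 0.403 ± 0.0742 FPKM (1.13, limma adjusted p = 0.00534), and its log2 fold change ran from 0.31 to 1.57 with the pseudocount. *Il13ra1* rose by 0.67 (adjusted p = 6.29e-05). *Il20rb* (-1.06, adjusted p = 0.0147) and *Il6st*, the gp130 chain (-0.17, adjusted p = 0.0183), fell, but *Il20rb* missed the threshold without Tyr-L library 1 (-0.96) or 3 (-0.80), and *Il6st* without Tyr-L library 2 (-0.15) or 3 (-0.17) or Tyr-H library 3 (-0.16), and under median ratio scaling (-0.02). Of 9 tested genes of receptor trafficking and of chaperones of JAK kinases, *Rack1*, a scaffold that binds IFNAR2, rose from 706 ± 14.8 to 991 ± 17.2 FPKM (0.49, adjusted p = 3.94e-06). *Hsp90aa1*, a chaperone of kinases, fell from 604 ± 47.6 to 417 ± 7.86 FPKM (-0.53, adjusted p = 2.95e-05), and *Btrc*, the F-box protein that marks IFNAR1 for degradation, from 3.89 ± 0.131 to 2.72 ± 0.0686 FPKM (-0.50, adjusted p = 0.000827). In this list 1 gene rose (11.1%, beside 17.9% of all genes), 4 fell (44.4%, beside 39.9%) and 4 did not pass.

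Genes whose pattern over the 6 libraries was most like that of each of the 9 were looked up among the 11025 genes that averaged 1 FPKM or more, by Pearson's r on log2(FPKM + 0.1). The nearest were *Smurf1* and *Plaur* for *Irf9* (r = 0.998 each), *Rfc1* (0.999) and *Spcs3* (0.998) for *Ifnar1*, and *Crkl* and *Pigm* for *Tyk2* (0.999 each). They were *Hoxa5* (0.996) and *Rbms3* (0.995) for *Jak2*, *Dnm2* (0.993) and *Pigq* (0.991) for *Jak1*, *Grasp* (0.993) and *Gtf2ird1* (0.991) for *Ifngr2*, and *Atg2a* (0.996) and *B3gat3* (0.991) for *Ifngr1*. For *Stat2* they were *Ccdc28a* (0.989) and *Mrpl20* (0.988), and for *Ifnar2* *Nostrin* and *Dynll2* (0.981 each). An r above 0.99 was reached by 306 genes for *Tyk2*, 51 for *Ifnar1*, 39 for *Irf9* and 18 for *Jak2*, and by none for *Stat2* and *Ifnar2*. Over 6 libraries, the closest of 11025 genes can reach such values whether or not the groups separate. The groups of *Jak1*, *Ifngr1* and *Ifnar2* overlapped, for example. The values therefore describe these libraries alone.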

How the data were processed

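RNA from 3 Tyr-L and 3 Tyr-H libraries (mRNA libraries, paired reads of 150 bp) had been sequenced, and the authors deposited 1 table of FPKM values per library, with each value normalized for transcript length and depth. The submitters' processing notes name Trimmomatic, HISAT, HISAT2 and the build GRCm38.p6. The quantifier, its annotation and its use of strand are not given in the sources used here. Groups and replicate numbers came from the labels. A gene not listed in a library was taken as 0.

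Depth was estimated from the steps between low FPKM values, using transcripts of 1500 nt or longer (18300000 to 20800000 fragments). Only 22.1 to 28.7% of low values lay within 0.1 of a whole number of steps, where values spread evenly would give 20%. The window may therefore largely set the estimate, which is rough, and no count test was run. Fragment numbers, the level of 3 fragments and the fold bound of *Icam1* rest on it, are approximate and cover counting error only.

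The 14336 genes that averaged 0.1 FPKM or more were compared on log2(FPKM + 0.1) in R 4.3.3 with limma 3.58.1 (1 coefficient for the group, eBayes with a variance trend, Benjamini-Hochberg over all genes tested). A fold change on this scale understates that of low genes. A gene passed at an adjusted p of at most 0.05. It reached 2-fold if its log2 fold change was also 1 or more in size, the thresholds of the study. Ratios and single genes had an exact two-sided permutation test. Other steps ran in Python 3.11.15 (scipy 1.17.1, pandas 2.3.3, numpy 2.4.6, matplotlib 3.10.9).

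Coordinates, counted from 1, and overlaps came from GENCODE M21 (GRCm38), which holds 20709 of the 20788 identifiers. Promoters came from RefSeq (GRCm38.p6), where all 9 genes matched. The 9 genes and the lists were chosen with earlier results of these data known. Named besides them were, for each list, the 2 largest increases and 2 largest decreases that passed, genes paired by role with the 9, the nearest tested coding genes on either side (those printed) and the 2 most alike genes. One entry of the trafficking list was an older symbol of *Rack1* and matched nothing. Alternatives were pseudocounts of 0.01 and 1, no filter, a filter at 1 FPKM, quantile normalization, median ratio scaling, libraries rescaled to 1000000 FPKM each, other variance models, the replicate number as a block, no fold threshold and each library left out.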

Additional observations from a re-analysis of the deposited data

How the results depend on the processing

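*Irf9* and *Ifnar1* kept their direction and passed under every alternative. Of the 9 genes, 3 rose on the deposited scale, and this count was 1 after rescaling to equal totals, 6 under median ratio scaling, 6 under quantile normalization, 1 without the variance trend, and 1 to 3 with each library left out (1 without Tyr-L library 1 and 1 without Tyr-H library 2). The count that fell was 3, and 1 under median ratio scaling and under quantile normalization. None reached 2-fold, beside 1 under each of those scalings and 6 with no fold threshold. *Ifnar2* turned to 0.14 and 0.13 under those scalings and ranged from -0.0402 to 0.0046 with each library left out (positive without Tyr-H library 1), and *Ifngr1* passed at 0.26 and 0.29. *Jak2* (-0.16 and -0.14) and *Tyk2* (-0.0536 and -0.0413) no longer passed there, and *Stat2* passed (0.47 and 0.50), as it did at 0.32 with a mean of at least 1 FPKM, a robust trend or the replicate block. *Ifngr2* did not pass after rescaling (0.0458), without the variance trend or with the block (0.14 each), nor *Jak1* after rescaling (0.0286) or, at 0.12, with a pseudocount of 0.01, no filter, no or a robust trend, or the block. With each library left out, *Ifngr2* ranged from 0.10 to 0.16, *Jak1* from 0.0906 to 0.16 and *Stat2* from 0.23 to 0.43. The ISGF3 targets that fell were 1 under either scaling, and the interferon gamma targets that rose were 7 with a mean of at least 1 FPKM. The ratio *Ifngr1*/*Ifngr2* ranged from -0.0940 to 0.0244 with each library left out, turning without Tyr-L library 1 and without Tyr-H library 1 (0.00817). *Socs3* turned to 0.0873 and 0.13 under the scalings and ranged from -0.124 to 0.0120 with each library left out (positive without Tyr-L library 2), and *Cdc37* turned to 0.14 and 0.0408 and ranged from -0.0389 to 0.0086 (positive without the same library). The cause was not tested.

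The replicate numbers did not pair the libraries (correlations of 0.0223, 0.0132 and -0.0834 between same-numbered deviations), and the block gave 7807 passing genes in place of 8292. Over all genes, 425 rose and 829 fell by at least 2-fold, beside 185 and 203 with a pseudocount of 1, and 247 and 393 with a mean of at least 1 FPKM. With 3 libraries a group and no counts, changes as small as those of *Jak1* (8.90%) and *Ifngr2* (10.1%) lie near the limit of what these data can show.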

Other observations

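Within each group, the same libraries stood at the ends for *Stat2* and *Irf9* and for most of the target genes that rose. Tyr-L library 1 was the lowest Tyr-L library and Tyr-H library 3 the highest Tyr-H library for both *Stat2* and *Irf9*. Of the 20 ISGF3 targets that rose, Tyr-L library 1 was the lowest of its group for 15 and Tyr-H library 3 the highest of its group for 18, with both for 14 (70.0%). Of the 11 interferon gamma targets that rose, the counts were 8, 11 and 8 (72.7% with both). Both held for 9.89% of all genes tested and for 17.4% of all genes that rose. *Ifngr2* and *Jak1* were also lowest in Tyr-L library 1 among the Tyr-L libraries, but were not highest in Tyr-H library 3. The comparison was made after the values of *Irf9* and *Stat2* had been seen, the genes within a library are not independent, and what these 2 libraries share was not tested.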
